A study of Mus musculus with 4 samples.

Results

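The genes described here are 10 cell adhesion genes that are followed in melanoma: 6 cadherins (Cdh1, Cdh2, Cdh3, Cdh4, Cdh11 and Cdh13) and 4 members of the immunoglobulin superfamily (Ncam1, Mcam, L1cam and Alcam). They were taken from a list of names, drawn up with earlier results of these data known, and all 10 were found by symbol among the 22524 genes of each count file. All 10 were also among the 14265 genes tested. RNA came from dermal hyperplasia of mouse skin before tumours had formed. Every mouse carried the oncogene NrasQ61K under the tyrosinase promoter (Tyr::NrasQ61K), a tamoxifen-dependent Cre under the same promoter (Tyr::CreERT2) and the red reporter R26R-LSL-tdTomato, received tamoxifen in vivo, and had its tdTomato-positive cells sorted. The group named NrasQ61K had 2 libraries. The group named Ezh2Y646N also had 2, and carried in addition ColA1-LSL-Ezh2Y646N, a conditional mutant of the histone methyltransferase Ezh2 at the ColA1 locus. The tyrosinase promoter is mainly active in pigment cells, so both the oncogene and the label depend on that lineage. The sources used here give no ages. Nor do the labels say whether the libraries of a group came from separate animals, so the p-values reflect only how these libraries scatter. Y-linked RNA was present in 1 Ezh2Y646N library and nearly absent from the other, so those 2 were not repeats of the same material. In the NrasQ61K group the scatter may be technical.

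Cadherins are calcium-dependent receptors that join neighbouring cells by binding a like molecule on the other cell. The classical ones hold on to the actin cytoskeleton through catenins bound to their cytoplasmic tail, and Cdh13 (T-cadherin) is an exception that is anchored to the membrane by a lipid and lacks that tail. In skin, melanocytes are held to keratinocytes through E-cadherin, the product of Cdh1, and a change from E-cadherin to N-cadherin, the product of Cdh2, is a well-known feature of melanoma progression. The immunoglobulin-type molecules also bind like or related molecules on other cells, and several are used as markers of melanoma cells.

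Total counts per library ranged from 14808801 to 20600297. Levels are given as CPM, counts per 1000000 reads of a library whose size was adjusted by edgeR's TMM factors, and fold changes as log2 of Ezh2Y646N over NrasQ61K. Pigment cell markers were present in every library, with the melanin enzyme gene Dct at 1486 to 2757 CPM, and so were keratinocyte genes, with the basal keratin Krt5 at 3750 to 8762 CPM. Ezh2 was at 135 and 91.6 CPM in the Ezh2Y646N libraries and at 171 and 75.1 in the NrasQ61K libraries, and counts per gene do not tell mutant from endogenous transcript, so Ezh2 was no check of the labels.

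E-cadherin was the most abundant adhesion RNA of the 10 in every library, and Cdh13, Cdh11, Cdh2 and Cdh4 had the lowest medians. Levels of different genes were compared per kilobase of annotated exon. Cdh1 was at 198 and 184 CPM per kilobase in the Ezh2Y646N libraries and at 73.5 and 171 in the NrasQ61K libraries. Cdh3, which encodes P-cadherin of basal epidermis and hair follicles, came second in all 4 libraries, between 53.9 and 78.7 CPM per kilobase. Alcam, an immunoglobulin-type molecule that binds itself and the lymphocyte receptor Cd6, followed in all 4, between 23.6 and 39.1. The range of Cdh1 reached down into that of Cdh3 through NrasQ61K replicate 1, although Cdh1 was above Cdh3 within each library. The ranges of Cdh3 and Alcam did not meet.

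Below these 3 genes, Ncam1, Mcam and L1cam had medians of 10.8, 9.61 and 8.82 CPM per kilobase and overlapping ranges, so their order was not settled. Ncam1 held rank 4 in both Ezh2Y646N libraries and ranks 5 and 6 in the NrasQ61K libraries. By exon length, every L1cam value was above the same library's Cdh13 value, and their ranges did not meet. The lowest 4 genes were Cdh13, Cdh11, Cdh2 and Cdh4, with medians of 4.06, 2.15, 1.94 and 1.91 CPM per kilobase, and each range overlapped the next. With the longest transcript as the length in place of all exons, L1cam (12.6) passed Mcam (10.8) and the medians of Cdh13, Cdh11 and Cdh2 became 9.99, 3.39 and 3.22. On that length L1cam was no longer above Cdh13 in every library, and their ranges met. The upper 3 genes kept their order.

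**Figure D1:**
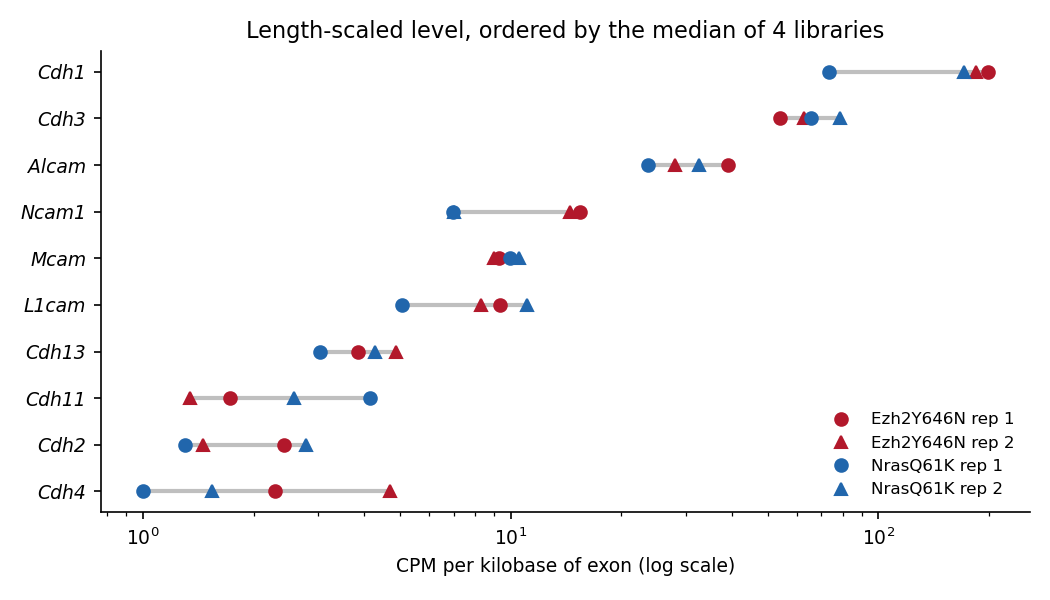
Length-scaled RNA level of the 10 adhesion genes, in CPM per kilobase of exon on a log axis, with 1 point per library (red Ezh2Y646N, blue NrasQ61K; circles replicate 1, triangles replicate 2) and a grey line from the lowest to the highest library. Cdh1 lies highest with 73.5 to 198, Cdh3 and Alcam follow, and Cdh13, Cdh11, Cdh2 and Cdh4 overlap at the low end.

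No member passed the threshold of 0.05 between the groups in edgeR's quasi-likelihood test with Benjamini-Hochberg adjustment over all genes. The count was 0 of 10, where 1.77% of all tested genes passed. At an unadjusted p under 0.05 there were 3 members, where 14.3% of all genes reached that level. These were Ncam1 and Cdh4 on the higher side in Ezh2Y646N (7.28% of all genes) and Cdh11 on the lower side (7.02%). The same 3 were past the adjusted threshold in DESeq2, which called 6.76% of the genes it adjusted. They were also past it in edgeR without a filter on low counts (6.95% of genes) and with the replicate number as a block (9.37%). Limma voom, which called 1.48% of genes, and edgeR with RLE size factors (1.52%) called 0 members. With single libraries left out, edgeR called 4 members without NrasQ61K replicate 2 (7.66% of genes) and 1 without NrasQ61K replicate 1 (2.95%). It called 0 without Ezh2Y646N replicate 1 (0.63%) and without Ezh2Y646N replicate 2 (1.47%). The groups did not overlap in 6 of 10 members, against 44.2% of all genes, with 3 members higher (21.1% of all genes) and 3 lower (23.1%). The median log2 fold change was 0.19 over the members and -0.04 over all genes tested. In simulated data of this design, with 14265 genes, 21.2% of 2-fold and 64.2% of 4-fold changes were recovered. Most 2-fold changes were thus missed in that run. It changed 66, 67 and 64 genes by 2-fold, 4-fold and 8-fold, picked at random from all tested genes. These shares may therefore not hold for the members. The same run also called 18 unchanged genes, beside 14, 43 and 58 genes changed 2-fold, 4-fold and 8-fold.

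**Figure D2:**
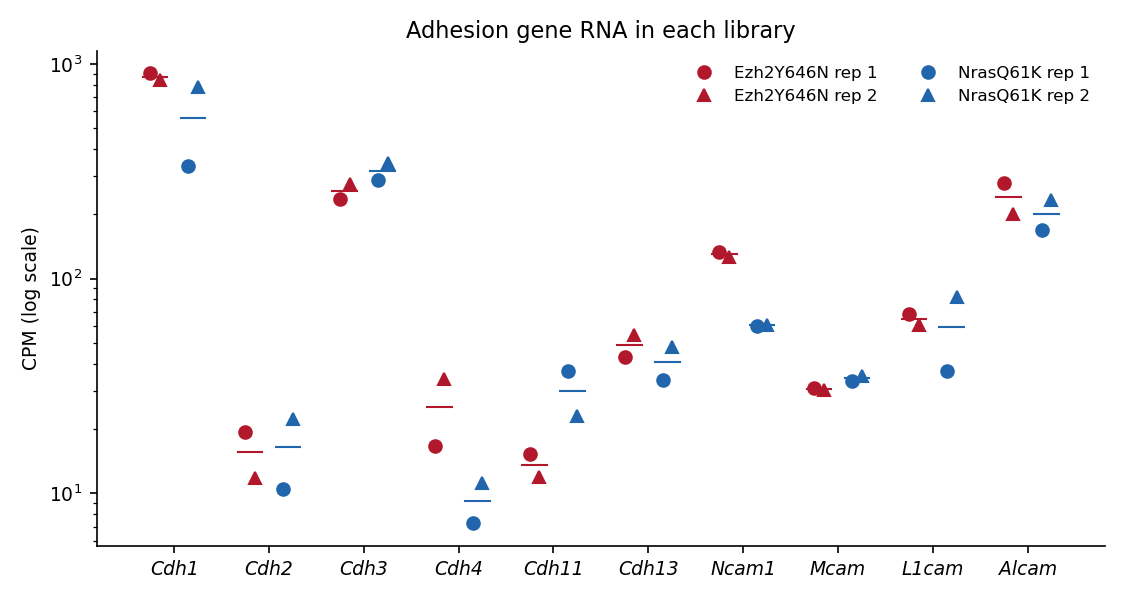
CPM of each adhesion gene on a log axis, with 1 point per library (red Ezh2Y646N, blue NrasQ61K; circles replicate 1, triangles replicate 2) and a line at each group's mean. Ncam1 and Cdh4 lie higher in both Ezh2Y646N libraries and Cdh11 lies lower in both, while Cdh2, Cdh13, L1cam and Alcam overlap between groups.

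Cdh1 (ENSMUSG00000000303, GRCm38 chromosome 8, 106603351 to 106670246) was at 904 and 842 CPM in the Ezh2Y646N libraries and at 336 and 780 CPM in the NrasQ61K libraries. NrasQ61K replicate 1 was thus low and the other 3 libraries lay close together, with the 2 groups not overlapping. Mean levels were 873 ± 43.9 against 558 ± 314 CPM (SD, n = 2 per group). This gave a log2 fold change of 0.65 with a standard error (SE) of 0.39 and a 95% interval of -0.26 to 1.56, at an adjusted p of 0.548 in edgeR. The value rested on which NrasQ61K library was used. Leaving out replicate 1 gave 0.16, and leaving out replicate 2 gave 1.42 with an adjusted p of 0.00718. The 2 NrasQ61K libraries differed 2.32-fold in Cdh1, and their 95% Poisson intervals, 327 to 345 and 768 to 792 CPM, were far apart, so counting error did not cover the gap. Such intervals take reads as independent molecules and cover counting error only.

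Cdh3 (ENSMUSG00000061048, chromosome 8, 106510891 to 106557297) lies close to Cdh1, with 46053 bases from the end of Cdh3 to the start of Cdh1. Among protein-coding genes of the files, 1, Gm10073, lies wholly between them. Cdh3 did not share the low value of NrasQ61K replicate 1. Its levels were 236 and 276 CPM in the Ezh2Y646N libraries and 288 and 345 CPM in the NrasQ61K libraries, lower in the former without overlap. Its log2 fold change was -0.31 (SE 0.23, 95% interval -0.85 to 0.24, edgeR's adjusted p = 0.656). It stayed between -0.43 and -0.13 under the 9 alternatives that were run.

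With Cdh1 on the higher and Cdh3 on the lower side, the make-up of the cadherin RNA differed between the libraries. Cdh1 made up 75.5% and 71.0% of the summed length-scaled level of the 6 cadherins in the Ezh2Y646N libraries, and 49.4% and 65.5% in the NrasQ61K libraries. Both Ezh2Y646N shares were above both NrasQ61K shares, with means of 73.2% ± 3.20 and 57.5% ± 11.4 (SD, n = 2 each). An exact 2-sided permutation test over the libraries gave p = 0.333, the smallest that 2 against 2 allows, so this design cannot reach 0.05 for such a value. Cdh3 took 20.6% and 24.3% against 44.2% and 30.2%. The other 4 cadherins took between 0.517% and 2.79% each. Summed over the 6 genes the level was 262 and 259 CPM per kilobase in the Ezh2Y646N libraries, and 149 and 260 in the NrasQ61K libraries, which overlapped.

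Cdh2 (ENSMUSG00000024304, chromosome 18, 16588877 to 16809246) was scarce in both groups. It was at 19.4 and 11.8 CPM in the Ezh2Y646N libraries and at 10.5 and 22.3 CPM in the NrasQ61K libraries, from 166 to 466 reads. High and low libraries occurred in both groups, which overlapped fully. A log2 fold change of -0.07 was obtained (SE 0.42, 95% interval -1.06 to 0.91, edgeR's adjusted p = 0.963). Its sign was not settled, since leaving out NrasQ61K replicate 2 gave 0.62 and leaving out NrasQ61K replicate 1 gave -0.52. The interval leaves room for a 2-fold difference on the lower side.

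E-cadherin RNA exceeded N-cadherin RNA by a wide margin in all 4 libraries, and the margin was larger in both libraries labelled Ezh2Y646N. Per kilobase, the ratio of Cdh1 to Cdh2 was 82.1 and 126 in those libraries, against 56.5 and 61.5 in the libraries labelled NrasQ61K. On the log2 scale the means were 6.67 ± 0.44 and 5.88 ± 0.09 (SD, n = 2 each), a difference of 0.79 with an exact 2-sided permutation p of 0.333, again the smallest possible. This ratio is taken within a library and does not depend on scaling between libraries. Its size does depend on the lengths used, and ran from 35.0 to 78.0 over the 4 libraries with the longest transcript of each gene. The log2 difference between the groups stayed at 0.79 on that length. The libraries also held RNA of keratinocytes, which make E-cadherin. Basal keratinocyte markers summed to 9896 to 23610 CPM, overlapping between groups, and pigment cell markers to 2579 to 3863 CPM. All 8 suprabasal markers tested were above 0 (median log2 fold change 2.45). The part of keratinocytes in this ratio was not tested.

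Counting error on the balance was set by the few Cdh2 reads. Cdh2 gave 2.10% and 1.38% of the reads of both genes in the Ezh2Y646N libraries and 3.03% and 2.79% in the NrasQ61K libraries. The exact Clopper-Pearson 95% intervals were 1.89 to 2.34 and 1.18 to 1.60 in the former and 2.59 to 3.51 and 2.54 to 3.05 in the latter. The intervals of the 2 groups did not meet, and neither did those of the 2 Ezh2Y646N libraries, whereas those of the NrasQ61K libraries overlapped. In NrasQ61K replicate 1 both genes were low, so the ratio there was close to that of NrasQ61K replicate 2 although its Cdh1 level was not.

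**Figure D3:**
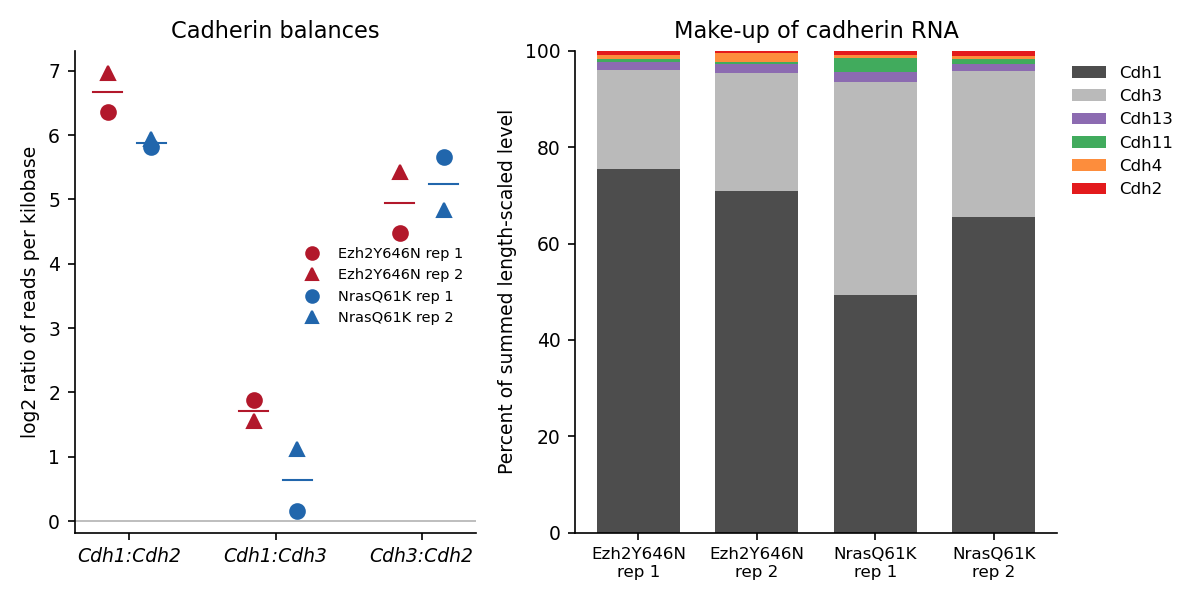
Left, log2 ratio of reads per kilobase for pairs of cadherins, with 1 point per library (red Ezh2Y646N, blue NrasQ61K) and a line at each group's mean; the Cdh1 to Cdh2 ratio is 6.36 and 6.97 against 5.82 and 5.94. Right, percent of the summed length-scaled level of the 6 cadherins taken by each gene in each library; Cdh1 takes 49.4% to 75.5%.

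Among the cadherins with little RNA here, Cdh4 and Cdh11 lay on opposite sides. Cdh4 (ENSMUSG00000000305, chromosome 2, 179442431 to 179899373), which encodes R-cadherin, known from the retina and nervous system, was at 16.6 and 34.0 CPM in the Ezh2Y646N libraries and at 7.27 and 11.2 CPM in the NrasQ61K libraries. All 4 values separated by group, and the Ezh2Y646N libraries themselves differed 2.06-fold. On the log2 scale the fold change was 1.45 (SE 0.41, 95% interval 0.49 to 2.41), with an unadjusted p of 0.00853 and an adjusted p of 0.144 in edgeR. It was 0.84 without Ezh2Y646N replicate 2 and 1.88 without Ezh2Y646N replicate 1, and passed the threshold without NrasQ61K replicate 2 (1.84, adjusted p = 0.0422).

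Cdh11 (ENSMUSG00000031673, chromosome 8, 102632095 to 102785642), a cadherin of mesenchymal cells such as fibroblasts and osteoblasts, was at 15.3 and 11.9 CPM in the Ezh2Y646N libraries and at 37.0 and 22.9 CPM in the NrasQ61K libraries. Both Ezh2Y646N values were below both NrasQ61K values. This was a log2 fold change of -1.13 (SE 0.32, 95% interval -1.88 to -0.38), with an unadjusted p of 0.0087 and an adjusted p of 0.145 in edgeR. Without NrasQ61K replicate 1, the highest library, it was -0.75, and without NrasQ61K replicate 2 it was -1.39 (adjusted p = 0.0206). DESeq2 gave -1.11 with an adjusted p of 0.0499.

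Fibroblast markers lay on the same side as Cdh11. Of 8 fibroblast markers tested 7 were below 0, with a median log2 fold change of -1.16, and their summed level was 909 to 2123 CPM in the Ezh2Y646N libraries and 2394 to 4094 CPM in the NrasQ61K libraries. None of the 8 was at 0 in any library. Dpt, a dermal matrix gene, fell (-2.08, edgeR's adjusted p = 0.0418), and the collagen genes Col1a1 (-1.13) and Col3a1 (-1.20) did not pass. The part of fibroblast RNA in the Cdh11 values was not tested. In such bulk samples, fewer cells of a type and less RNA per cell cannot be told apart.

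Cdh13 (ENSMUSG00000031841, chromosome 8, 118283733 to 119324921) overlapped between groups, at 43.2 and 54.7 CPM against 33.9 and 48.0 CPM. Its log2 fold change was 0.26 (SE 0.27, 95% interval -0.37 to 0.88, edgeR's adjusted p = 0.779). Of the 6 cadherins, 4 lie on chromosome 8, and they were not all on the same side: Cdh1 and Cdh13 had log2 fold changes above 0 and Cdh3 and Cdh11 below.

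Ncam1 separated the groups with little spread inside them. Ncam1 (ENSMUSG00000039542, chromosome 9, 49502136 to 49798925) encodes the neural cell adhesion molecule, which is found on neurons, Schwann cells and muscle and can be modified with polysialic acid. It was at 133 and 126 CPM in the Ezh2Y646N libraries and at 60.3 and 60.9 CPM in the NrasQ61K libraries, from 954 to 2320 reads. Libraries of a group differed by 1.06-fold and 1.01-fold, and the group means by 2.14-fold. The log2 fold change was 1.10 (SE 0.21, 95% interval 0.61 to 1.59), and edgeR's adjusted p was 0.0507, just outside the threshold. It lay between 1.06 and 1.15 under all 9 alternatives, and its adjusted p between 0.000701 and 0.251. The annotated antisense gene Gm11149, which shares 417 bases of exon with Ncam1, was at 0.23 CPM or less in every library.

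Most Schwann cell markers had log2 fold changes above 0 as well. Of 8 such markers 7 were above 0, with a median of 1.36, and their summed level was 396 to 892 CPM in the Ezh2Y646N libraries and 241 to 406 CPM in the NrasQ61K libraries, which overlapped. Only Pmp2 was at 0 in a library. The myelin gene Mbp, at 256 and 95.3 CPM against 17.0 and 49.8 (2.39), and the regulator Egr2 (-0.80) did not pass. Markers of skeletal muscle, another source of Ncam1, were above 0 in 6 of 7 tested, with a median of 0.60 and 0 called. Their summed level was 50.0 and 79.3 CPM in the Ezh2Y646N libraries and 35.0 and 52.2 CPM in the NrasQ61K libraries, which overlapped. Ttn, the giant sarcomere protein gene, was at 23.3 and 36.3 CPM against 15.2 and 24.0, and the muscle actin gene Acta1 at 9.02 and 12.9 against 5.69 and 8.01. Myog, a regulator of muscle differentiation, had no reads in any library. The part of Schwann cell or muscle RNA in the Ncam1 values was not tested.

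L1cam (ENSMUSG00000031391, chromosome X, 73853778 to 73896105), an axonal molecule that also marks invasive tumour cells, had its lowest value in NrasQ61K replicate 1, as Cdh1 did. It was at 68.7 and 60.8 CPM in the Ezh2Y646N libraries and at 37.2 and 81.9 CPM in the NrasQ61K libraries, so the NrasQ61K libraries held both the lowest and the highest value. The fold change on the log2 scale was 0.12 (SE 0.36, 95% interval -0.72 to 0.96, edgeR's adjusted p = 0.935), and it ranged from -0.34 without NrasQ61K replicate 1 to 0.84 without NrasQ61K replicate 2. L1cam shares 100 bases of exon with Arhgap4 on the same strand, which was at 25.7 to 29.9 CPM. L1cam is X-linked, and the libraries were not all alike in sex-linked RNA: the Y-linked gene Ddx3y was at 120 CPM in Ezh2Y646N replicate 1, 0.138 in replicate 2, and 130 and 88.3 in the NrasQ61K libraries. The L1cam level of the library without Y-linked RNA, 60.8 CPM, lay inside the range of the others.

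Mcam (ENSMUSG00000032135, chromosome 9, 44134469 to 44142727), a marker of melanoma progression that is also made by endothelium and pericytes, hardly varied. It was at 31.1 and 30.2 CPM in the Ezh2Y646N libraries and at 33.3 and 35.2 CPM in the NrasQ61K libraries, lower in the former without overlap. Poisson intervals of the libraries overlapped across the groups. They were 28.5 to 33.8 CPM in Ezh2Y646N replicate 1 and 30.5 to 36.3 in NrasQ61K replicate 1. Overlap of such intervals is not a test of a difference, so it does not decide whether counting error covers the separation. The log2 fold change was -0.16 (SE 0.23, 95% interval -0.69 to 0.37, edgeR's adjusted p = 0.846). Endothelial markers were lower by more, with 10 of 10 below 0, a median of -0.76, and a summed level of 94.4 to 152 CPM against 214 to 243. Pericyte and smooth muscle markers were divided, with 5 above 0 and 3 below and a median of 0.07. The 1 marker called, Acta2, fell (-1.75, edgeR's adjusted p = 0.0355). An unadjusted p under 0.05 was reached by 2, both on the lower side, where 7.02% of all genes were. The summed level of the 8 markers was 374 and 404 CPM in the Ezh2Y646N libraries and 308 and 449 CPM in the NrasQ61K libraries. No endothelial or pericyte marker was at 0, and the part of these cells in the Mcam values was not tested.

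Alcam (ENSMUSG00000022636, chromosome 16, 52248996 to 52454074) was the most abundant of the 4 immunoglobulin-type genes. Its levels were 278 and 200 CPM in the Ezh2Y646N libraries and 168 and 232 CPM in the NrasQ61K libraries, and the groups overlapped. The log2 fold change was 0.26 (SE 0.27, 95% interval -0.37 to 0.89, edgeR's adjusted p = 0.782). It was -0.002 without Ezh2Y646N replicate 1 and 0.04 without NrasQ61K replicate 1. Of the summed length-scaled level of these 4 genes, Alcam took 46.8% to 53.4% in every library, while Ncam1 took 21.1% and 24.3% in the Ezh2Y646N libraries against 15.3% and 11.5%. The exact permutation p for the Ncam1 share was 0.333, the smallest possible.

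**Figure D4:**
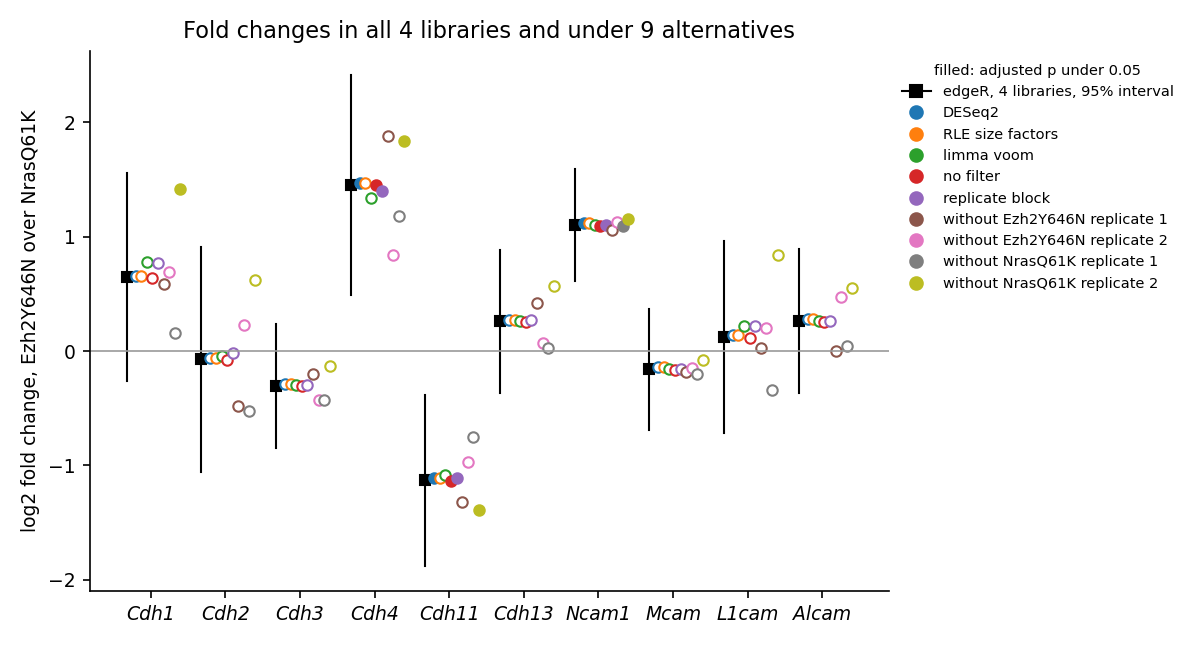
Log2 fold change, Ezh2Y646N over NrasQ61K, of each adhesion gene with all 4 libraries in edgeR (black squares, with 95% intervals) and under 9 alternatives (circles, filled where the adjusted p is under 0.05). Ncam1 stays between 1.06 and 1.15, Cdh4 between 0.84 and 1.88 and Cdh11 between -1.39 and -0.75, while Cdh2, L1cam and Alcam fall on both sides of 0.

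The other parts of the adhesion machinery gave no call over all genes in edgeR. Of 15 tested catenins and linkers of the adherens junction 0 passed, and the median was 0.08. An unadjusted p under 0.05 was reached by 2, both on the higher side, where 14.3% of all genes reached it and 7.28% on that side. Ctnnb1, which encodes beta-catenin and joins cadherin tails to alpha-catenin, was at 879 and 627 CPM in the Ezh2Y646N libraries and at 1039 and 1149 CPM in the NrasQ61K libraries (log2 fold change -0.54, edgeR's adjusted p = 0.464). Jup, which encodes plakoglobin and serves both adherens junctions and desmosomes, was at 1114 and 985 CPM against 453 and 916 CPM (0.62, adjusted p = 0.528). The libraries ranked alike in Jup and Cdh1, with NrasQ61K replicate 1 far below the other 3 in both.

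Other cadherins of the same classes were mostly near the detection limit. Of 14 listed, 5 passed the filter on low counts and Cdh12 had no reads in any library. None of the 5 passed the threshold, all 5 were below 0, and the median was -0.48. An unadjusted p under 0.05 was reached by 1, on the lower side, where 7.02% of all genes were. Cdh5, the cadherin of endothelium, was at 25.9 and 11.2 CPM against 34.4 and 30.2 CPM (-0.80), and Cdh19, a cadherin of Schwann cell precursors and melanocytes, at 30.6 and 14.6 against 17.7 and 29.1 CPM (-0.05). The 1 with the low unadjusted p was Cdh6, named after its values were seen, at 2.76 and 3.18 CPM against 47.2 and 8.06 (-3.21, edgeR's adjusted p = 0.0885), where NrasQ61K replicate 1 stood well above all others.

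Transcription factors that repress or maintain E-cadherin were not called either, with 0 of 13 tested past the threshold and a median of -0.15. That median mixes genes of opposite action. All tested repressors (Snai, Zeb, Twist and Tcf genes) were below 0, and among the Grhl, Ovol and Klf genes only Grhl2 was. This grouping was made after the values were seen and was not tested as a set. At an unadjusted p under 0.05 there were 4, named after their values were seen, where 14.3% of all genes reached that level. Grhl3, an activator of epidermal differentiation, was on the higher side (1.32, edgeR's adjusted p = 0.0701). On the lower side were Twist1 (-1.34), Twist2 (-1.90) and Tcf4 (-0.61), with adjusted p from 0.208 to 0.342. The 2 most abundant members were Klf4, at 457 and 569 CPM against 225 and 470 (0.56), and Grhl2, at 139 and 154 CPM against 175 and 150 (-0.15). Among 11 tested binding partners and processing enzymes of the adhesion genes 0 passed and the median was -0.14. Ezr, which links membrane proteins to actin, had a log2 fold change of 0.54, and Adam10, which sheds E-cadherin and N-cadherin from the surface, of -0.18. Cd6, the lymphocyte ligand of Alcam, had 12, 0, 0 and 10 reads in the 4 libraries.

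Suprabasal epidermis and hair markers had median log2 fold changes larger in size than that of any of the 10 genes. Of 9 suprabasal keratinocyte markers listed 8 were tested and all 8 were above 0, with a median of 2.45 and a summed level of 29750 to 42098 CPM in the Ezh2Y646N libraries against 3416 to 8884 CPM in the NrasQ61K libraries. Of them Lor (3.66), Cdsn (3.80) and Ivl (1.84) rose, and Krt10 (2.78) and Krt1 (2.30) did not pass. Hair matrix and shaft markers were below 0 in 10 of 10, with a median of -2.88 and 215 to 490 CPM against 1476 to 2775 CPM. Krt35 (-2.98), Krt25 (-2.45), Krt71 (-2.43) and Tchh (-2.51) fell. Basal keratinocyte markers overlapped, at 13075 to 20258 against 9896 to 23610 CPM. None of these markers was at 0 in a library. Keratinocytes make E-cadherin and P-cadherin and hair matrix cells make P-cadherin. The part of these cells in the Cdh1 and Cdh3 values, and in the ratios made from them, was not tested. Pigment cell markers took 3781 and 3863 CPM in the Ezh2Y646N libraries and 2579 and 3349 CPM in the NrasQ61K libraries, with 7 of 8 above 0, a median of 0.31 and 0 called. NrasQ61K replicate 1, the library with the lowest Cdh1, also had the lowest sum of pigment cell, basal and suprabasal markers. The same library had the highest sums of hair (2775 CPM), fibroblast (4094 CPM) and endothelial markers (243 CPM). Whether its cell make-up bears on its Cdh1 level was not tested.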

How the data were processed

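The values the authors deposited are raw counts of reads for each Ensembl gene, not normalized. Per the submitters' processing notes, bcl2fastq 2.19, Trimmomatic, STAR 2.5.4b, featureCounts, edgeR and GRCm38 were used, without stated roles; the sources used here do not give the annotation release, strand setting or gene filter. Per the labels' protocols, RNA was isolated with a micro column kit and made into stranded total RNA libraries for very small inputs. Symbols, positions and exon lengths came from GENCODE M21 on GRCm38, which held 22291 of the 22524 identifiers.

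The main test was edgeR 4.0.16 (R 4.3.3): filterByExpr (minimum 10 counts, 15 in total), trimmed mean of M-values, robust quasi-likelihood fit with group as its term and 2 residual degrees of freedom, Benjamini-Hochberg over all 14265 genes, threshold 0.05. The SE was derived from fold change and F, and the 95% interval from the SE and the test's degrees of freedom. The script was tested on simulated data. Alternatives used DESeq2 1.42.0 (p-values it left unadjusted stayed out), limma 3.58.1 voom, other size factors, no filter, a replicate block and each library left out. Depth was 14808801 to 20600297 counts.

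The members and lists were chosen with earlier results of these data known, so no list was tested as a set. Genes named are the 10 members and, from each other list, up to 3 past the threshold with the smallest p and the 2 of highest mean CPM; Tchh was past the threshold and among the 2 highest. Of the genes this rule gives, 1 is not reported here. Markers of pericytes (8 tested, median 0.07; Acta2 fell), macrophages and dendritic cells (9, -1.45), T cells (4, -1.38) and skeletal muscle (7, 0.60) were also listed; 0 of 4 adipocyte markers passed the filter.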

Additional observations from a re-analysis of the deposited data

How the results depend on the processing

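The 0 calls among the 10 adhesion genes depended on the processing. DESeq2, edgeR with no filter on low counts, and edgeR with the replicate block each called 2 higher and 1 lower, in each case Ncam1, Cdh4 and Cdh11; these settings called 6.76%, 6.95% and 9.37% of all genes (529 and 398, 686 and 616, and 710 and 627 genes higher and lower, against 157 and 96 in the reported fit). RLE size factors (1.52% of genes) and limma voom called 0. With 1 library left out, 0 to 3 members were higher and 0 to 1 lower, and over all genes 49 to 730 higher and 43 to 393 lower. Without NrasQ61K replicate 2 the 4 called members were Ncam1, Cdh4, Cdh1 and Cdh11 (7.66% of genes), without NrasQ61K replicate 1 only Ncam1 was (2.95%), and without either Ezh2Y646N library 0 were. The cause was not tested. A lone library in a group is assumed there to vary like the other group. With single libraries left out, signs turned for Cdh2 (-0.52 to 0.62; above 0 without Ezh2Y646N replicate 2 or NrasQ61K replicate 2), L1cam (-0.34 to 0.84; below 0 without NrasQ61K replicate 1) and Alcam (-0.002 to 0.55; below 0 without Ezh2Y646N replicate 1); the other 7 members kept their sign in all 9 alternatives.

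Same-numbered libraries deviated together only weakly (Pearson's r of 0.141 across 14265 genes, which are not independent). The labels do not say that a number marks a shared source, and with 2 libraries per group this r cannot decide it. The replicate block was therefore not read as a paired design. Within numbers the Cdh1 to Cdh2 balance differed by 0.54 and 1.03 on the log2 scale, a mean of 0.79. That balance differed by 0.48 to 1.09 with 1 library left out, and the Cdh1 share by 7.75 to 23.8 percentage points.

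For the other lists, with 0 calls in the reported fit, DESeq2 called 1 other cadherin lower, 1 E-cadherin regulator higher and 2 immunoglobulin-type genes higher. With no filter the counts were 1 lower, 1 higher, and 3 higher with 1 lower, plus 1 binding partner lower. With the replicate block they were 1 lower, 1 higher, and 3 higher with 1 lower, plus 1 binding partner higher and 1 lower. With 1 library left out they ran from 0 to 2 for catenins higher, 0 to 1 for other cadherins lower, 0 to 2 for regulators higher, 0 to 2 for immunoglobulin-type genes higher, and 0 to 2 higher and 0 to 1 lower for binding partners, above 0 without NrasQ61K replicate 2 alone.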

Other observations

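L1cam has 3 close relatives, Chl1, Nrcam and Nfasc, which encode axonal adhesion molecules, and these were looked at together after their values were seen. All 3 were higher in both Ezh2Y646N libraries than in either NrasQ61K library, where 21.1% of all tested genes were. Chl1 was at 377 and 363 CPM against 72.5 and 202 CPM, a log2 fold change of 1.43 (edgeR's adjusted p = 0.167). Nrcam was at 132 and 101 CPM against 47.6 and 65.4 CPM (1.05, adjusted p = 0.104), and Nfasc at 15.2 and 6.08 CPM against 4.61 and 3.31 CPM (1.43, adjusted p = 0.239). None passed over all genes, and L1cam itself had a log2 fold change of 0.12. Over the 18 tested immunoglobulin-type adhesion genes outside the 10, the median was 0.30. At an unadjusted p under 0.05, 3 were higher (7.28% of all genes) and 1 lower (7.02%). The 3 higher ones were the same Chl1, Nrcam and Nfasc, so this count adds no further genes. The lower 1 was Pecam1 (-0.87), an endothelial molecule. Bcam, a laminin receptor and the second most abundant of them, was at 237 and 237 CPM against 175 and 231 CPM (0.22).

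The ratio of Cdh1 to Cdh3, also chosen after the values were seen, differed between the groups by more than that of Cdh1 to Cdh2 on the log2 scale. Per kilobase it was 3.67 and 2.93 in the Ezh2Y646N libraries and 1.12 and 2.17 in the NrasQ61K libraries. The log2 means were 1.71 ± 0.23 and 0.64 ± 0.67 (SD, n = 2 each), a difference of 1.07, and the exact 2-sided permutation p was 0.333, the smallest possible. The ratio of Cdh3 to Cdh2 overlapped between groups, at 22.4 and 43.0 against 50.5 and 28.4.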
